A study of Mus musculus with 6 samples.

Results

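Transcripts of 10 genes of the neuronal cytoskeleton were followed in chronic stroke infarcts and in the cortex of the opposite hemisphere. The genes are *Nefl*, *Nefm*, *Nefh*, *Ina*, *Map2*, *Mapt*, *Map1b*, *Tubb3*, *Tubb2a*, and *Stmn2*. They were taken by symbol from count tables of 46078 gene identifiers, and each symbol matched 1 identifier. All 10 were among the 15554 genes that passed the filter on low counts. The tissue came from wild type C57BL/6J mice with an age of 3 months in the labels, male in the study's methods, at 7 weeks after stroke. Stroke was made by permanent coagulation of the distal middle cerebral artery followed by hypoxia, so the contralateral cortex belongs to a brain that also had the surgery and the hypoxia. The control is the mirror-image region, and since the edge of an infarct was judged by sight, how much neighboring tissue each sample holds is not known. Each region is represented by 3 RNA-Seq libraries. The labels name no injected agent and do not say which infarct and which cortex share a mouse. They also do not state that the 3 libraries of a region are from separate mice, so *p* values measure the spread between these libraries.

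Neurofilaments are the intermediate filaments of axons. The light, medium and heavy chains, encoded by *Nefl*, *Nefm*, and *Nefh*, assemble with alpha-internexin, encoded by *Ina*, into filaments that run along the axon and set its caliber. Microtubules, built from alpha and beta tubulin, are the tracks of axonal transport. Tau (*Mapt*) binds them mainly in axons, MAP2 (*Map2*) mainly in dendrites, and MAP1B (*Map1b*) in growing and mature neurites. Stathmin 2 (*Stmn2*) binds tubulin dimers and is needed for the upkeep and regrowth of axons. *Tubb3* is the beta tubulin used as a marker of neurons, and *Tubb2a* is a beta tubulin abundant in brain. Loss of MAP2 staining is a classic histologic sign of ischemic injury.

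Counts on genes totaled 12146959 to 13427057 in infarcts and 11943570 to 19933962 in contralateral cortices. Levels are CPM, read counts relative to the size of the library, after scaling with the TMM method of edgeR. A gene was called where its fold change exceeded 2 and its adjusted *p* was under 0.05. SE is the standard error of a log2 fold change, and intervals are 95% confidence intervals. The tissue labels were checked with marker lists, which were also chosen with earlier results of these data known. All 20 of the general neuronal genes used here as a reference were lower in infarcts, with a median log2 fold change of -2.85. Higher were 7 of 7 fibroblast genes and 7 of 8 genes of microglia and macrophages. Of all tested genes 20.9% were called lower and 25.7% higher. Infarct 3 had the highest level of the reference neuronal genes among the infarcts. The geometric mean of the reference neuronal genes was 8.88% of its contralateral level in infarct 1, 12.2% in infarct 2, and 21.5% in infarct 3. *Neurod6*, a transcription factor of excitatory forebrain neurons, had 611 counts in infarct 3 and 23 and 59 counts in infarcts 1 and 2.

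In infarcts at 7 weeks, 9 of the 10 cytoskeleton genes were downregulated and 0 were upregulated. The median log2 fold change of the 10 genes was -2.60, compared with 0.03 over all tested genes. Among all tested genes, 20.9% were downregulated and 25.7% were upregulated by the same criteria. The exception was *Tubb2a*, whose fold change of 1.93 was under the threshold. By adjusted *p* alone, 10 of 10 genes were lower, against 30.8% of all tested genes. For 10 of 10 genes the highest infarct library was below the lowest contralateral library, as it was for 34.7% of all tested genes. The study itself named the 3 neurofilament genes for this comparison, and all 10 genes were chosen with earlier results of these data known. The direction of the 10 genes is therefore not independent evidence. In bulk tissue, fewer neurons and less RNA per neuron cannot be told apart. DESeq2 and limma voom also called 9 lower and 0 higher, and without infarct 3 edgeR called all 10 lower.

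**Figure D1:**
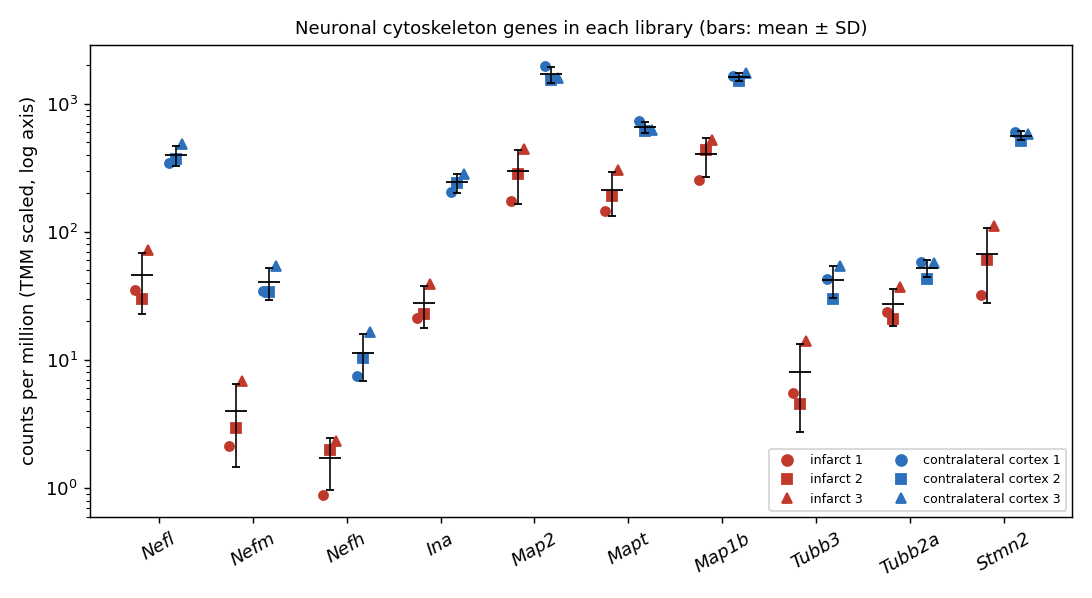
TMM-scaled CPM (log axis) of the 10 genes in each of the 3 infarct (red) and 3 contralateral (blue) libraries, where symbols mark the library number and black bars the mean ± SD. Infarct 3 (red triangles) was the highest infarct library for all 10 genes and stayed below the contralateral libraries, and the gap between the regions was smallest for *Tubb2a*.

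The intermediate filament genes of neurons held the 3 lowest fold changes of the 10 genes. *Nefl*, the chain without which the other neurofilament chains form few filaments, measured 347, 368 and 482 CPM in contralateral libraries 1, 2 and 3 against 35.3, 30.1 and 71.8 CPM in infarct libraries 1, 2 and 3. Infarct 3 was the highest of the infarcts and was still far below every contralateral library. The fold change was 8.71 (log2 -3.12, SE 0.35, edgeR adjusted *p* = 8.48e-05). *Nefm* measured 34.8, 33.7 and 53.8 CPM in contralateral libraries against 2.15, 2.94 and 6.83 CPM in infarct libraries. Its log2 fold change of -3.34 (SE 0.42, edgeR adjusted *p* = 0.000209) was the lowest estimate among the 10 genes, with an interval from -4.32 to -2.36 that includes the estimates of *Nefl*, *Nefh*, and *Ina*. *Nefh*, the chain with the long, heavily phosphorylated tail, had few counts, with 11, 27 and 34 in the infarct libraries against 144, 159 and 178 on the other side. These correspond to 0.876, 1.98 and 2.32 CPM against 7.52, 10.4 and 16.4 CPM. The regions were separate, with a log2 fold change of -2.70 (SE 0.40, edgeR adjusted *p* = 0.000282). *Ina* measured 205, 239 and 285 CPM in contralateral libraries against 21.1, 23.0 and 39.2 CPM in infarct libraries. It had the smallest adjusted *p* of the 10 genes, 7.58e-06 from edgeR, with a log2 fold change of -3.13 (SE 0.26).

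The position of these genes bears on their counts. On GRCm38, *Nefl* lies at chr14:68083863-68089095 on the plus strand, wholly inside *Nefm* at chr14:68082590-68124846 on the minus strand. Of the exon bases of *Nefl*, 32.8% are also exon bases of *Nefm*, and 19.2% of the exon bases of *Nefm* are shared with *Nefl*. The libraries were made with a stranded kit, but the strand setting of the counting is not given in the sources used here, and without it reads from the shared stretch cannot be assigned. *Nefm* counts were 6.09% to 11.2% of *Nefl* counts across the 6 libraries. *Ina* (chr19:47014698-47025327, plus strand) shares 14.1% of its exon bases with *Nt5c2* on the other strand. *Nefh* (chr11:4938754-4948064, minus strand) shares none.

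Within the neurofilament triplet, *Nefl* held most of the transcripts in both regions. Its split from *Nefm* carries the uncertainty of their shared exon bases and of the length used. With the longest transcript as length, contralateral *Nefm* had 11.1 CPM per kb in place of 7.05, against 118 for *Nefl*. Per kilobase of exon, *Nefl* took 92.3% ± 2.39 (SD, n = 3) of the triplet in infarcts and 92.4% ± 0.82 in contralateral cortices. *Nefh* took 1.70%, 2.21% and 2.63% of the triplet in contralateral cortices, compared with 1.99%, 5.01% and 2.53% in infarcts 1, 2 and 3. The regions overlapped, and the mean difference was 0.991 percentage points (two-sided exact permutation *p* = 0.5, with 0.1 the smallest that 3 against 3 libraries allow). The value of infarct 2 rests on 27 *Nefh* counts, and without that library the difference was 0.074 percentage points.

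Among the 10 listed intermediate filament genes, which include neither keratins nor lamins, the 4 genes *Nefl*, *Nefm*, *Nefh*, and *Ina* were the minority in infarcts and the majority in contralateral cortices. *Gfap*, the filament of astrocytes, rose with a log2 fold change of 4.81 (edgeR adjusted *p* = 4.41e-07), and *Vim*, the filament of fibroblasts, macrophages and reactive astrocytes, rose with 5.29 (adjusted *p* = 4.20e-07). *Nes* and *Des*, which encode nestin of progenitor and vascular cells and desmin of muscle and pericytes, also rose, with 1.23 and 1.62. *Synm* had a log2 fold change of 0.79, under the threshold. Per kilobase of exon, these 4 genes made up 88.6%, 90.6% and 89.6% of the transcripts of the list in contralateral cortices. In infarcts 1, 2 and 3 they made up 3.87%, 3.80% and 6.13%. The regions did not overlap, and the mean difference was -85.0 percentage points (two-sided exact permutation *p* = 0.1, the smallest possible here). In infarcts *Gfap* took 51.9% ± 4.67 and *Vim* 39.9% ± 5.25 of the list, compared with 4.02% ± 0.48 and 2.17% ± 0.45 in contralateral cortices (SD, n = 3). Such shares fall for a gene when other members rise, so they do not measure the amount of neurofilament RNA.

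Peripherin (*Prph*), the intermediate filament of peripheral neurons, was near 0 in every library, with 0, 0 and 1 counts in infarcts and 10, 0 and 5 counts on the other side, and it was not tested. *Scn10a*, *Isl1*, and *Avil*, also listed as markers of peripheral neurons, were likewise too low to be tested.

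**Figure D2:**
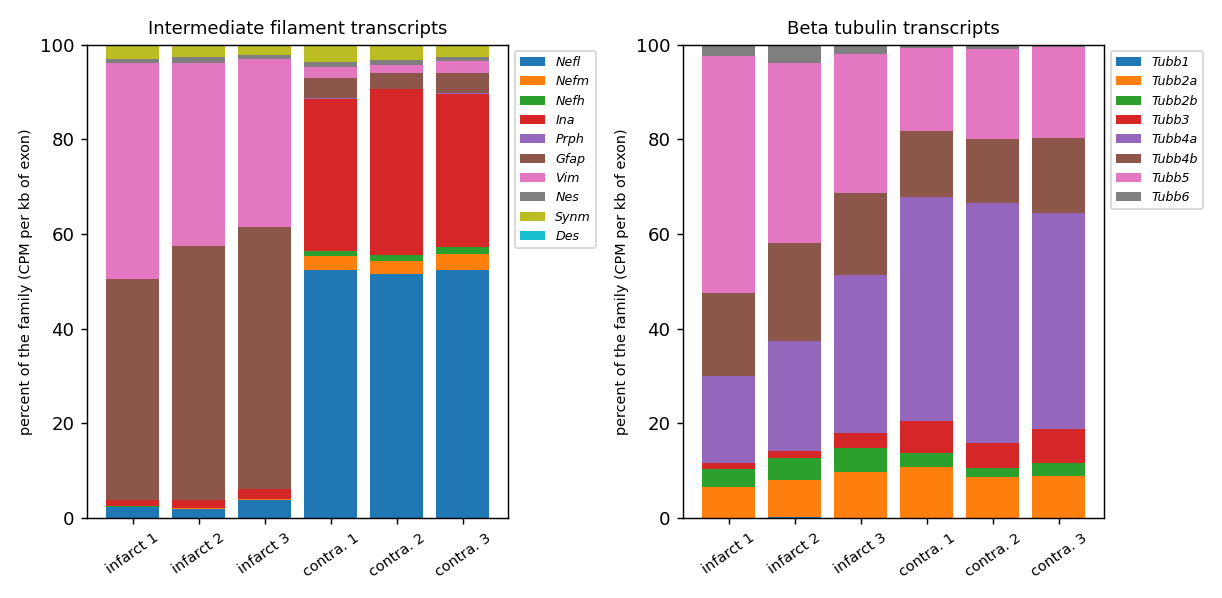
Percent of a list's transcripts (CPM per kb of exon) taken by each of the 10 listed intermediate filament genes (left) and 8 listed beta tubulin genes (right) in every library. *Nefl* and *Ina* filled most of the contralateral bars on the left and *Gfap* and *Vim* most of the infarct bars, while on the right *Tubb4a* was the largest contralateral segment and *Tubb5* took 50.0%, 38.1% and 29.4% in infarcts 1, 2 and 3.

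The microtubule-associated proteins fell less steeply than the filament genes by their estimates. *Map2* (chr1:66175273-66442583, plus strand) measured 1968, 1533 and 1591 CPM in contralateral libraries against 173, 283 and 440 CPM in infarct libraries. The highest infarct library was far below the lowest contralateral one, and the log2 fold change was -2.51 (SE 0.32, edgeR adjusted *p* = 0.000134). *Map1b* (chr13:99421446-99516540, minus strand) measured 1657, 1497 and 1734 CPM in contralateral libraries against 256, 434 and 520 CPM in infarct libraries, with a log2 fold change of -2.01 (SE 0.25, adjusted *p* = 8.40e-05). *Mapt* (chr11:104231390-104332090, plus strand) measured 732, 618 and 628 CPM in contralateral libraries against 147, 189 and 303 CPM in infarct libraries. Tau transcripts thus stayed at 32.3% of the contralateral level by the fitted fold change of 3.10 (log2 -1.63, SE 0.26, adjusted *p* = 0.000368). *Stmn2* (chr3:8509360-8561606, plus strand) had an estimate close to those of *Nefl* and *Ina*. It measured 600, 512 and 579 CPM in contralateral libraries against 32.3, 60.1 and 111 CPM in infarct libraries, a fold change of 8.31 (log2 -3.06, SE 0.42, adjusted *p* = 0.000449). Infarct 3 had 3.43 times the *Stmn2* level of infarct 1, the widest such ratio of the 10 genes, and without infarct 3 the log2 fold change was -3.59.

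Oligodendrocytes also make tau, and none of the oligodendrocyte markers was lower in the infarcts. Of 7 oligodendrocyte markers, 4 were upregulated and 0 downregulated, compared with 25.7% and 20.9% of all tested genes. Their summed level was 4341 to 6973 CPM in infarcts and 2175 to 2600 CPM in contralateral cortices. *Mobp* had a log2 fold change of 1.60 and *Mbp* of 1.29. The part of these cells in the *Mapt* level was not tested.

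The beta tubulins held the smallest and one of the middle changes of the 10 genes. *Tubb3* (chr8:123411424-123422015, plus strand) measured 43.2, 29.8 and 53.7 CPM in contralateral libraries against 5.50, 4.55 and 14.2 CPM in infarct libraries. It was downregulated with a log2 fold change of -2.38 (SE 0.45, edgeR adjusted *p* = 0.00243), and without infarct 3 with -3.05. *Tubb2a* (chr13:34074274-34078007, minus strand) measured 58.0, 43.0 and 56.7 CPM in contralateral libraries against 23.8, 20.8 and 37.2 CPM in infarct libraries. Infarct 3 came close to contralateral cortex 2, and the log2 fold change was -0.95 (interval -1.47 to -0.42, adjusted *p* = 0.00545). The gene passed the fold threshold without infarct 3, at -1.22, and without contralateral cortex 2, at -1.08.

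*Tubb2a* has a close paralog, *Tubb2b*, a tubulin of developing neurons and glia, whose counts are shown beside it because reads of the pair can be hard to assign. The coding sequences of the pair have 1338 bases each and are 96.5% identical. Of the 75-base windows of the *Tubb2a* transcript, 43.2% also occur in a transcript of another gene, mostly *Tubb2b*, and reads that align to several places were not counted on genes. None of the *Tubb3* windows occurs elsewhere. The last 60 coding bases, stop codon included, show how far the paralogs have diverged at their 3′ ends, from the GENCODE M21 transcripts with capitals at bases that differ from *Tubb2a* at the same distance from the stop codon.
Tubb2a: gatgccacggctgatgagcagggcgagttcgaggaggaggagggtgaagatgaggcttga
Tubb2b: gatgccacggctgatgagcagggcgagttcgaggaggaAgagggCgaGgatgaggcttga
Tubb3: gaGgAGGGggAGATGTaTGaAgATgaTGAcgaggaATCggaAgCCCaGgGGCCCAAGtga
Of these 60 bases *Tubb2b* differs at 3 and *Tubb3* at 35, so this stretch separates *Tubb3* from *Tubb2a* but hardly separates *Tubb2b*. The level of *Tubb2b* was 20.97 CPM ± 5.62 in infarcts, compared with 20.2 CPM ± 5.15 in contralateral cortices (SD, n = 3), with a log2 fold change of 0.05 (SE 0.25, edgeR adjusted *p* = 0.862). Both values of the pair carry the uncertainty of the shared windows.

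The other beta tubulins moved in both directions. *Tubb4a*, the main beta tubulin of myelinating oligodendrocytes and of many neurons, was downregulated from 369 CPM ± 28.4 to 118 CPM ± 50.5 (log2 fold change -1.64, edgeR adjusted *p* = 0.000581). *Tubb6* was upregulated (1.28, adjusted *p* = 0.000496), and *Tubb5*, *Tubb4b*, and *Tubb2b* were not called. Together, *Tubb2a*, *Tubb2b*, *Tubb3*, and *Tubb4a* made up 67.8%, 66.6% and 64.4% of the 8 listed beta tubulins per kilobase of exon in contralateral cortices. They made up 29.9%, 37.3% and 51.3% in infarcts 1, 2 and 3. The regions did not overlap, with a mean difference of -26.8 percentage points (two-sided exact permutation *p* = 0.1, the smallest possible here), and infarct 3 was the closest to the contralateral range. Most of this summed share was *Tubb4a*, with 47.9% ± 2.65 in contralateral cortices and 25.0% ± 7.58 in infarcts. Within the family, *Tubb2a* held 8.07% ± 1.60 in infarcts and 9.42% ± 1.15 in contralateral cortices, while *Tubb3* held 2.0% ± 1.05 and 6.44% ± 1.14.

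Promoters of 5 of the 10 genes are in the RefSeq table used here (*Tubb2a*, *Tubb3*, *Ina*, *Map1b*, and *Map2*, GRCm38.p6). Those of *Tubb2a* and *Ina* are printed because these genes had the smallest change and one of the largest. The 250 bases before the start are given 5′ to 3′ on the strand of the gene, for *Tubb2a* at chr13:34078009-34078258 (minus strand) and for *Ina* at chr19:47014431-47014680 (plus strand). Capitals mark matches on either strand to TATAAA, the core of a TATA box, to TGACGTCA, the cyclic AMP response element, and to GGGCGG, a GC box.
Tubb2a: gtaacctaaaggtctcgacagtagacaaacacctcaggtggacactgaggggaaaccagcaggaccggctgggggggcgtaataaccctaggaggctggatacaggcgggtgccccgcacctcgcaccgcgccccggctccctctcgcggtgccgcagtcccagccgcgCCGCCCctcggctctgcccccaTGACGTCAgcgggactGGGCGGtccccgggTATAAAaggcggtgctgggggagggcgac
Ina: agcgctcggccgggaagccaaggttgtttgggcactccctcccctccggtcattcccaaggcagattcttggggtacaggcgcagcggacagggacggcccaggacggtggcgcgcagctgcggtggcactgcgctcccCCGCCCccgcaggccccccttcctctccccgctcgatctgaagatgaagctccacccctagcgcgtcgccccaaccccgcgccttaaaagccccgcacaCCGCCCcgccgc
In windows of 250 bases before and 50 bases after the start, TATAAA occurs in 13.6% of the 32851 promoters of the table, TGACGTCA in 1.79%, and GGGCGG in 35.7%. *Tubb2a* has TATAAA 29 bases and TGACGTCA 59 bases before its start, and *Ina* has neither. *Map1b* has TATAAA 99 bases before its start. GC boxes occur in all 5 promoters, with 5 in *Map2* and 2 in each of the others. TTCAGCACC, the left part of the RE1 element bound by the neuronal gene repressor REST, occurs in 0.371% of promoters and in none of the 5. A match of letters describes the sequence only, and these promoters were not measured.

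To compare the genes with each other, levels were divided by the length of their exons in kilobases. In contralateral cortices the order of mean levels was *Nefl* (118 CPM per kb), *Map2* (103), *Map1b* (103), *Stmn2* (101), *Mapt* (87.5), *Ina* (75.04), *Tubb2a* (32.7), *Tubb3* (22.6), *Nefm* (7.05), and *Nefh* (2.86). The libraries of neighbors in this order overlapped from *Nefl* to *Ina* and between *Tubb2a* and *Tubb3*. In infarcts the order was *Mapt* (28.3), *Map1b* (25.4), *Map2* (18.2), *Tubb2a* (16.9), *Nefl* (13.5), *Stmn2* (12.1), *Ina* (8.57), *Tubb3* (4.33), *Nefm* (0.687), and *Nefh* (0.432). *Nefl* moved from the highest to the fifth place and *Tubb2a* from the seventh to the fourth, but neighbors in the infarct order overlapped from *Mapt* to *Tubb3* and between *Nefm* and *Nefh*. The place of *Nefl* depends on the length used. With the length of the longest transcript in place of all exons, *Map2* (271), *Stmn2* (165), *Map1b* (138), and *Mapt* (125 CPM per kb) all lay above *Nefl* (118) in contralateral cortices.

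Since all general neuronal genes were lower in infarcts, the fit was repeated with the libraries scaled to equal mean log2 CPM of the 20 reference neuronal genes, which include *Rbfox3*, *Snap25*, *Syt1*, *Syp*, and *Eno2* and none of the 10 genes. This asks whether a cytoskeleton gene was lower or higher than those genes, in place of whether it was lower than the average transcript. A gene was called at an adjusted *p* under 0.05 without a fold threshold. By edgeR, none of the 10 genes was called lower than the neuronal reference (0 also at an unadjusted *p* under 0.05), 2 were called higher, and 8 were neither. The median log2 fold change of the 10 genes on this scale was 0.24, compared with 3.03 over all tested genes, of which 88.2% were called higher and 0.437% lower.

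The 2 genes above the neuronal reference were *Tubb2a*, with a log2 fold change of 1.98 (SE 0.46, interval 1.08 to 2.87, edgeR adjusted *p* = 2.05e-05), and *Mapt*, with 1.23 (SE 0.46, interval 0.32 to 2.14, adjusted *p* = 0.00913). Being above it is not particular to *Tubb2a*. Of 7 tested beta tubulins 6 were called higher, all but *Tubb3*, a share close to the 88.2% of all tested genes. Log2 fold changes were 3.00 for *Tubb2b*, 3.47 for *Tubb5*, 2.62 for *Tubb4b*, and 1.23 for *Tubb4a*. The call of *Mapt* was lost without contralateral cortex 2 (adjusted *p* = 0.0531) and without contralateral cortex 3 (adjusted *p* = 0.0789), with log2 fold changes of 1.24 and 1.13. *Map1b* had 0.88 (interval -0.05 to 1.81, adjusted *p* = 0.0717), and it was called without infarct 1 (adjusted *p* = 0.0211) and without infarct 3 (adjusted *p* = 0.000618). *Nefl* had -0.26 (interval -1.13 to 0.61), *Nefm* -0.57 (-1.48 to 0.34), *Nefh* 0.15 (-0.88 to 1.18), and *Ina* -0.24 (-1.12 to 0.64). *Stmn2* had -0.28 (-1.16 to 0.59), *Map2* 0.32 (-0.59 to 1.24), and *Tubb3* 0.42 (-0.46 to 1.30). These intervals leave room for a neurofilament level below or above that of the reference genes, so a like change is not shown.

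**Figure D3:**
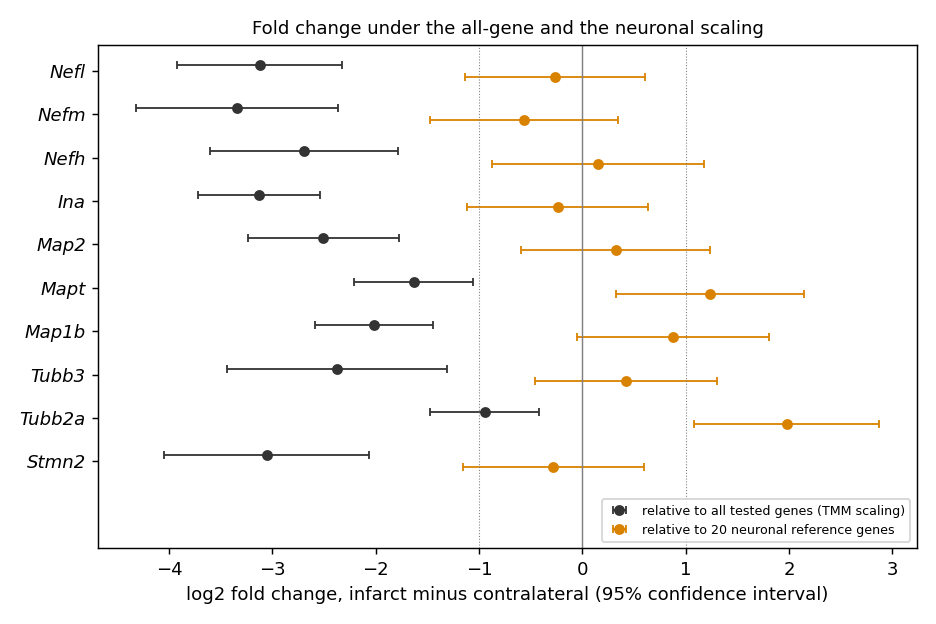
Log2 fold change (infarct minus contralateral) of the 10 genes with 95% confidence intervals, relative to all tested genes under TMM scaling (black) and relative to 20 neuronal reference genes (orange), with dotted lines at a fold change of 2. All black intervals lie below 0, while of the orange ones those of *Mapt* and *Tubb2a* lie above 0 and the other 8 include it.

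The same pattern can be read within single libraries, where no scaling between libraries enters. *Tubb2a* was 0.82, 1.47 and 1.46 log2 units below the mean of the reference genes in infarcts 1, 2 and 3 and 3.02, 3.35 and 3.22 below it in contralateral cortices. *Mapt* was 1.78, 1.68 and 1.55 above that mean in infarcts and 0.63, 0.48 and 0.23 above it in contralateral cortices. *Map1b* was 2.58, 2.88 and 2.32 above in infarcts and 1.80, 1.75 and 1.70 above in contralateral cortices. For these 3 genes the regions did not overlap, with higher relative levels in infarcts by 1.95, 1.22 and 0.84 log2 units. *Nefm* and *Stmn2* lay lower in infarcts without overlap, with differences of -0.40 and -0.30. For each of the 5 genes the two-sided exact permutation *p* was 0.1, the smallest possible for 3 against 3, and the remaining 5 genes overlapped. On this scale 93.4% of all tested genes lay higher in infarcts without overlap and 0.727% lay lower.

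**Figure D4:**
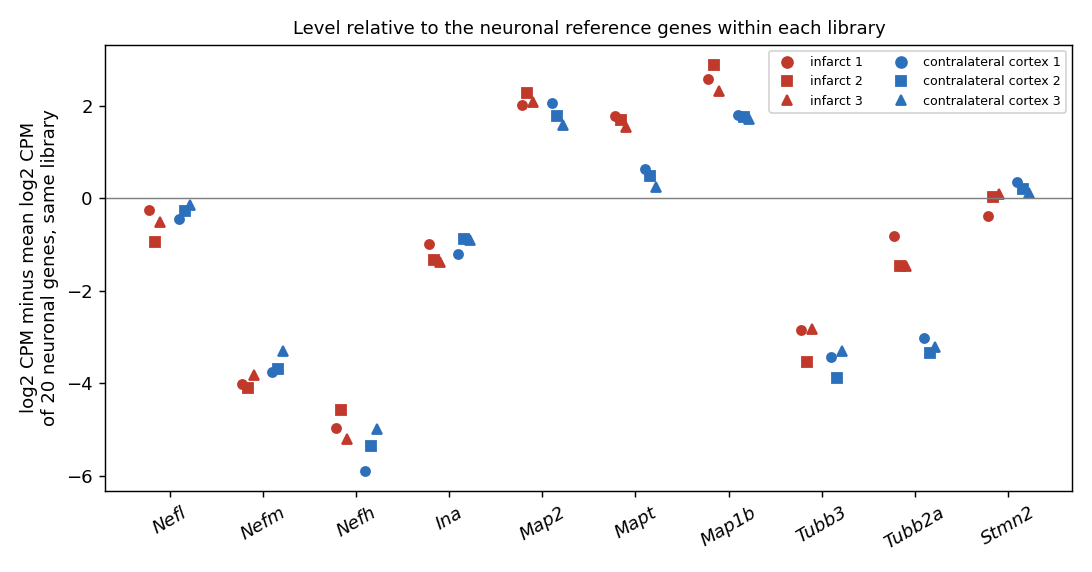
Log2 CPM of each gene minus the mean log2 CPM of the 20 neuronal reference genes of the same library, for 3 infarct (red) and 3 contralateral (blue) libraries. The red symbols lie above the blue ones for *Mapt*, *Map1b* and *Tubb2a*, and below them for *Nefm* and *Stmn2*.

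Markers of the cells that could hold these transcripts moved between the regions as well. Of 7 astrocyte markers, 2 were upregulated and 1 downregulated, compared with 25.7% and 20.9% of all tested genes. By edgeR adjusted *p* alone 3 were higher and 3 lower, and the median log2 fold change was -0.37. Their summed level was 5098 to 7594 CPM in infarcts and 13501 to 14394 CPM in contralateral cortices. In contralateral cortices that sum was mostly *Slc1a2*, the main astrocyte glutamate transporter, which was downregulated (log2 fold change -2.07). The other 6 astrocyte genes summed to 1399 to 1709 CPM in contralateral cortices against 2722 to 3672 CPM in infarcts, with *Gfap* and *Aqp4*, the water channel of astrocyte endfeet, upregulated (4.81 and 1.68). *Gfap* alone had a mean of 38.6 CPM in contralateral cortices and 1080 CPM in infarcts, so neither sum stands for the whole list. The 8 genes of microglia and macrophages summed to 1241 to 1581 CPM in infarcts and 259 to 340 CPM in contralateral cortices, and the 7 fibroblast genes to 7060 to 8829 and 176 to 220 CPM. Of 6 endothelial markers 4 were upregulated. The part of these cells in the levels of *Tubb2a*, *Mapt*, and *Map1b* was not tested. Among neuronal types, 6 of 7 excitatory and 7 of 7 inhibitory markers were downregulated, with medians of -2.88 and -2.53, and 5 of 6 upper-layer and 4 of 8 deep-layer genes, with medians of -3.65 and -1.14. *Foxp2*, listed with the deep layers but also a gene of striatal neurons, was upregulated with a log2 fold change of 1.53 and had 1361, 3013 and 1575 counts in infarcts 1, 2 and 3. Of 7 genes listed for thalamus and striatum, 3 were upregulated, namely *Prkcd* (4.04), *Adora2a* (2.34), and *Tcf7l2* (1.75), and the glutamate transporter gene *Slc17a6* was downregulated (-5.15). The remaining 3, *Ppp1r1b*, *Drd1*, and *Drd2*, all genes of striatal neurons, were not called. The list summed to 145 to 185 CPM in infarcts and 129 to 145 CPM in contralateral cortices, and the uncalled *Drd1* varied between infarcts 1, 2 and 3, with 27, 255 and 127 counts. Which cells held the upregulated genes of this list, and whether any sample included thalamic or striatal tissue, was not tested. The part of any such tissue in the levels of the 10 genes was not tested either.

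The wider cytoskeleton was described with 14 lists that hold 120 genes besides the 10. Of these, 115 were tested, 60 (52.2%) were downregulated, and 11 (9.57%) were upregulated, compared with 20.9% and 25.7% of all tested genes. The median log2 fold change of the 115 genes was -1.04, compared with 0.03 over all tested genes. All 3 other stathmins were downregulated, with -2.30 for *Stmn1*, -2.83 for *Stmn3*, and -1.70 for *Stmn4*. Of the 12 other microtubule-associated proteins, 9 were downregulated and 0 upregulated. *Map9* (-2.97), *Map7d2* (-2.89), and *Map1a* (-2.51), a relative of *Map1b* in mature neurons, had the lowest log2 fold changes of this list. *Dcx*, which encodes doublecortin of young neurons, was also downregulated (-1.78). *Map4*, the main microtubule-associated protein outside neurons, had -0.97 and *Map7d1* -0.13, and neither was called.

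Alpha tubulins diverged. *Tuba1a*, the major alpha tubulin of postmitotic neurons, measured 535 CPM ± 61.2 in contralateral cortices against 339 CPM ± 70.8 in infarcts, and the log2 fold change of -0.65 (edgeR adjusted *p* = 0.0114) was under the fold threshold. *Tuba1b* had -0.61. *Tuba4a* (-2.31) and *Tuba8* (-4.52) were downregulated. *Tuba8* was the only alpha tubulin below the neuronal reference (log2 fold change -1.86, edgeR adjusted *p* = 0.0029), and 3 of the 5 tested were above it. Of all tested genes 0.437% were called below the reference and 88.2% above it, so being above it does not set these alpha tubulins apart. Few counts limit *Tuba8*, with 3, 2 and 14 in infarcts 1, 2 and 3 against 134, 230 and 112 in contralateral cortices. *Tuba1c* was upregulated from 0.647 CPM ± 0.319 to 29.0 CPM ± 1.64 (log2 fold change 5.55). Among the remaining tubulins, *Tubg2*, a gamma tubulin of brain, was downregulated (-2.48), whereas *Tubg1*, the general one, had -0.56.

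Motors and regulators of the axon were mostly lower. The counts below stand beside 20.9% of all tested genes downregulated and 25.7% upregulated, and the lists were chosen with earlier results known. Of 17 transport motor genes, 11 were downregulated and 0 upregulated. The neuronal kinesin heavy chains *Kif5a* (-2.39) and *Kif5c* (-2.81) fell, while *Kif5b*, the chain made by all cells, had -0.41 (edgeR adjusted *p* = 0.0576). *Kif1a*, which moves synaptic vesicle precursors, fell with -2.37. Of 11 kinases and activators that act on tau and neurofilaments, 9 were downregulated, among them the activators of CDK5, *Cdk5r1* (-3.03) and *Cdk5r2* (-3.05), and the kinase *Cdk5* itself (-1.22). Of 7 spectrin and ankyrin genes of the submembrane skeleton, 6 were downregulated, including *Ank3* (-2.67) and *Sptbn4* (-2.56) of the axon initial segment. Of 10 microtubule end-binding genes 7 were downregulated, and *Mapre1*, which encodes EB1, had 0.89, under the threshold.

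The enzymes that modify tubulin were split. Of 16 genes, 7 were downregulated, including *Ttll7* (-2.33) and *Ttll11* (-3.00), which add glutamate chains, and *Agtpbp1* (-1.98), which removes them. *Svbp*, the chaperone of the tyrosine-removing vasohibins, was upregulated (1.42). All 6 tubulin folding factors were not called, with a median of -0.14. By edgeR adjusted *p* alone, *Tbce* (-0.79) was lower and *Tbca* (0.85) and *Tbcd* (0.62) were higher. Of 7 severing genes, *Katnal1* was downregulated (-1.51), *Katna1* (1.52) and *Fignl1* (2.23) were upregulated, and 4 were not called. Counts this small do not set the severing genes apart from all tested genes, of which 20.9% were downregulated and 25.7% upregulated. Among 7 tested genes of axon regrowth, *Gap43* (-2.02), *Basp1* (-2.13), and *Sox11* (-1.26) were downregulated and *Atf3* (7.04) and *Klf6* (1.11) upregulated. *Atf3* and *Klf6* are also induced in many cells other than neurons.

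**Figure D5:**
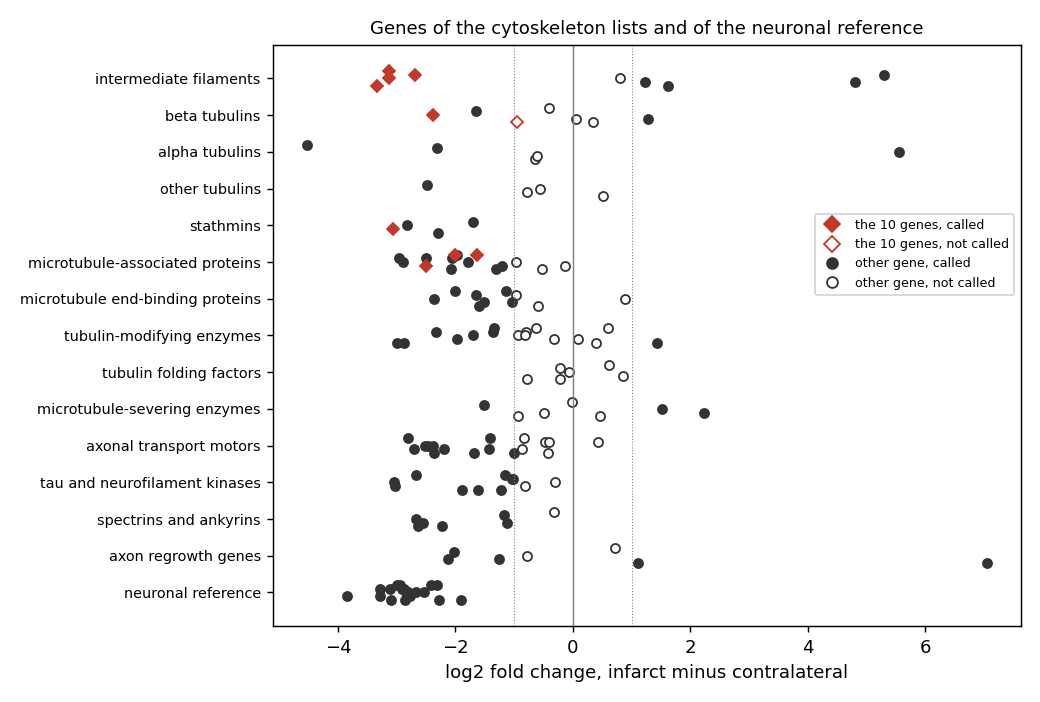
Log2 fold change (infarct minus contralateral) of each tested gene in the 14 cytoskeleton lists and the neuronal reference, with the 10 genes as red diamonds, all others as black circles, and filled symbols for genes called (fold change above 2, marked by dotted lines, with adjusted *p* under 0.05). The reference genes lie between -3.84 and -1.91, the span in which 8 of the 10 genes also lie, and tubulin folding factors lie between -0.79 and 0.85.

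For the genes named next, the tested gene whose log2 CPM profile over the 6 libraries was most like it was found by the root mean square of the difference after centering. The closest profile of *Nefl* was that of *Rtn4r* (root mean square 0.096 log2 units), of *Nefm* that of *Slitrk1* (0.105), of *Nefh* that of *Sult2b1* (0.175), and of *Ina* that of *Cplx1* (0.047). *Map2* was closest to *Glt1d1* (0.084), *Mapt* to *Kcnj16* (0.057), and *Map1b* to *Slc4a3* (0.071). *Tubb2a* was closest to *Klf16* (0.045) and *Stmn2* to *Elavl2* (0.098). *Cplx1* belongs to the neuronal reference. With 6 libraries in 2 regions, many genes share such profiles, and these pairs are a description only.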

How the data were processed

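RNA-Seq counts of 3 infarct and 3 contralateral cortex libraries were analyzed. Per the labels and the paper's methods, the authors used a stranded mRNA kit, bcl2fastq 2.19, Trimmomatic 0.32, STAR 2.5.2b on GRCm38 and htseq-count, and deposited raw counts per Ensembl gene. The annotation, version and strand setting of the counting are not given in the sources used here. Library totals on genes were 11943570 to 19933962 (65.7% to 73.4% of tallied reads), and entries that name no gene were left out. Identifiers were matched to GENCODE M21 (45229 found, 849 not).

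Counts were fitted with edgeR 4.0.16 in R 4.3.3 (filterByExpr, TMM, robust quasi-likelihood, region as the only term) and adjusted by Benjamini-Hochberg over 15554 genes. The biological coefficient of variation was 0.220, and 0.374 under the neuronal reference scaling. Standard errors are the absolute log2 fold change over the root of the F statistic, and intervals are 95%. Log2 CPM values within a library and for profiles used a pseudocount of 0.5 CPM. Shares were compared with exact permutation tests. Alternatives were DESeq2 1.42.0, limma 3.58.1 voom, other scalings, filters, thresholds, reference lists and lengths, a replicate block, and each library left out. The fits were tested on simulated data. Promoters came from RefSeq tables, and transcripts from GENCODE. Tables and plots were made with Python 3.11.15, pandas 2.3.3, SciPy 1.17.1 and matplotlib 3.10.9.

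Named genes are the 10 genes, genes of the lists, and for each of the 10 the gene with the nearest profile. Some results of this rule are not reported here. The genes, the lists and the reference were chosen with earlier results of these data known.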

Additional observations from a re-analysis of the deposited data

How the results depend on the processing

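Across DESeq2, limma voom, RLE, upper quartile and library-total scaling, both alternative filters, glmTreat and the replicate block, 9 of the 10 genes were downregulated, with 10 when no fold change was required. Leaving out each library gave 9 to 10 downregulated genes, 0 upregulated, and 55 to 63 of the other cytoskeleton genes downregulated. The count of these other genes varied more between methods. It was 60 in the main fit, 47 with glmTreat, 51 with library totals, and 78 when no fold change was required. Library totals in place of TMM moved the median log2 fold change of all tested genes from 0.03 to 0.23, and all changes given are relative to TMM. The count of genes above the neuronal reference ranged from 1 to 3 when each library was left out, with 1 without contralateral cortex 2 or without contralateral cortex 3, where *Mapt* was lost. It was 3 with summed counts of the reference list, where *Map1b* was added (log2 fold change 0.97, adjusted *p* = 0.0409 from edgeR), and 2 with excitatory neuron genes as the reference. No gene was below the reference under any of these. Leaving out each library gave a difference of -85.8 to -84.5 percentage points in the share of *Nefl*, *Nefm*, *Nefh*, and *Ina* among the 10 listed intermediate filaments, and of -32.7 to -22.0 in the share of *Tubb2a*, *Tubb2b*, *Tubb3*, and *Tubb4a* among the 8 listed beta tubulins. No result changed its direction where it was called.

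Whether the replicate numbers pair the samples is not known. The deviations of same-numbered libraries from their region means correlated with *r* of -0.205, 0.111 and 0.023 for numbers 1, 2 and 3. With so few libraries, and infarcts that differ in their neuronal RNA, these values cannot decide whether same-numbered libraries share a mouse. With the replicate block, 9 of the 10 genes were downregulated, 59 of the other cytoskeleton genes were downregulated, and 2 and 0 of the 10 lay above and below the neuronal reference. Few counts limit *Nefh*, with 11 to 34 in infarcts.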
